A study of Mus musculus with 20 samples.

Results

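The genes of the constitutive proteasome were followed in bone marrow-derived macrophages of mice. They were taken by name: every gene of the count table whose symbol starts with Psma, Psmb, Psmc or Psmd and a digit, without the immunoproteasome genes Psmb8, Psmb9 and Psmb10, and with a mean of at least 1 CPM (counts per 1000000 of the library total) over the 20 libraries. Of 22165 genes in the table, 40 matched by symbol; 3 were excluded by name and Psmb11 by its level of 0, which left 36. The 2 members nearest the limit were Psma8 (1.30 CPM) and Psmc3ip (1.42 CPM), and the next, Psmd13, stood at 11.3 CPM. Psma8 encodes an alpha subunit of the testis, and Psmc3ip matches by symbol although it encodes a cofactor of meiotic recombination and no proteasome subunit. Both had no read in some libraries (Psma8 in 5 and Psmc3ip in 3), so neither is described by its fold change; both stay in the counts and medians over the 36.

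In every group the macrophages were wild-type, of the strain C57BL/6, and were grown in RPMI with m-CSF, the growth factor of macrophages. There were 10 groups of 2 libraries. Control cells (Ctrl) and cells given dimethyl itaconate (DI) at 250 µM for 12 h were each sampled ahead of stimulation with lipopolysaccharide (LPS) and interferon gamma (IFNg), at 0 h, and 1, 2, 4 and 6 h after it. DI is a derivative of itaconate, a metabolite of activated macrophages, that enters cells. No label says whether the 2 libraries of a group came from separate mice or cultures, so the p-values measure the spread between these libraries, which may be technical.

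The proteasome is the protease that degrades proteins tagged with ubiquitin. Its 20S core is a stack of rings: the outer rings hold alpha subunits, which gate the entrance, and the inner rings hold beta subunits, of which Psmb6, Psmb7 and Psmb5 (beta 1, beta 2 and beta 5) carry the catalytic sites. The 19S regulator caps the core. In its base, 6 ATPases (Psmc genes) unfold substrates beside the scaffolds Psmd1 and Psmd2 and the ubiquitin receptor Psmd4, and in its lid Psmd14 removes the ubiquitin chain. Psmd5, Psmd9 and Psmd10 are chaperones that assemble the base and are not part of the finished particle. In cells exposed to IFNg, Psmb9, Psmb10 and Psmb8 can replace the catalytic subunits Psmb6, Psmb7 and Psmb5 and form the immunoproteasome, which favours peptides for MHC class I. NRF2, the transcription factor of the electrophile response, binds the antioxidant response element, and NRF1, encoded by Nfe2l1, is known to raise proteasome genes when proteasome activity is low.

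The RefSeq promoter table (GRCm38.p6, 250 bases before to 50 bases after each start site) held windows of 29 of the 36 genes. The core of the antioxidant response element, TGACNNNGC on either strand, was found in 5 of the 29 genes (17.2%). Counted by window it was in 5 of their 31 windows (16.1%), against 12.4% of all 32851 windows in the table. The 4 matches with 10 bases on each side inside the window are shown because they include both catalytic subunits whose transcripts were higher in DI, with the core in capitals and each written in the direction of its gene.
Psmb5: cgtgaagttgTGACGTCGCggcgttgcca
Psmb6: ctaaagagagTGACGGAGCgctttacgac
Psmd9: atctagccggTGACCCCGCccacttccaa
Psmc6: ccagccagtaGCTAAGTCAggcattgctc
The Psmb5 sequence lies at chr14:54618024-54618052 on the minus strand, and on the plus strand lie those of Psmb6 at chr11:70525338-70525366, Psmd9 at chr5:123228149-123228177 and Psmc6 at chr14:45329587-45329615. The core is upstream of the start site in each, directly before it in Psmb6 and farthest from it in Psmc6, where it is on the other strand. The fifth match was in Psmd12, near the outer edge of its window. Of the 5 genes with the core 2 were higher in DI over the 5 times, Psmb5 and Psmb6, and of the 24 genes with a window but no core 5 were (Psmc2, Psmd5, Psmd6, Psmd11 and Psmd14). The CCAAT box, which binds NF-Y, was in 12 of the 31 windows (38.7%) and in 37.4% of all windows. As a reference for the search, 3 of 5 known NRF2 target genes with a window held the core. A match is a description of the letters in a window and says nothing of binding.

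Each library held between 3655977 and 8938983 counts in Ctrl and between 3982073 and 6725447 in DI, of which the 36 genes took 12155 to 44218 and 16015 to 31796. DI libraries were less complex, with 333 to 674 genes at 1 to 3 reads against 1370 to 1741 in Ctrl, so DI treatment and low complexity cannot be told apart in these comparisons. The median coefficient of variation between the 2 libraries of a group was 24.8% in DI and 15.5% in Ctrl over the 34 members of at least 10 CPM. Macrophage markers summed to 3246 to 4757 CPM in Ctrl and 2620 to 4382 in DI, neutrophil markers to 239 to 593 and 254 to 514, and fibroblast markers to 35.4 to 62.3 and 5.30 to 34.7; B cell, T and NK cell and dendritic cell markers stayed at or under 6.84. The neutrophil sum rested on S100a8 and S100a9, with medians of 135 and 260 CPM over the 20 libraries. The other neutrophil markers Ly6g, Mpo, Elane and Camp had medians of 0.219, 0.885, 1.18 and 7.65 CPM. The sum is therefore no measure of neutrophils. In bulk RNA, fewer cells of a type and less RNA per cell cannot be told apart. The targets of NRF2 listed as a check of the treatment were higher in DI in 7 of 7 genes, with a median log2 fold change of 3.77. The lists were chosen with earlier results of these data known, so this is no independent check.

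The first comparison asks whether DI altered proteasome transcripts irrespective of time. Over the mean of the 5 times, 7 of 36 members were higher in DI, which is 19.4%, and 0 were lower. Among all 10663 genes tested, 12.0% were higher and 17.7% lower. The 7 were the chaperone Psmd5, the catalytic subunits Psmb5 and Psmb6, the ATPase Psmc2 and the lid genes Psmd14, Psmd6 and Psmd11. The median log2 fold change was 0.19 over the members and −0.06 over all genes, and 27 members (75.0%) lay above 0 against 45.6% of all genes. Without Psma8 and Psmc3ip the members' median was 0.20. By group, 2 of 3 catalytic beta genes, 3 of 8 lid genes, 1 of 6 ATPases and 1 of 3 chaperones were called, and none of the 7 alpha ring genes, the 4 other beta genes or the 3 remaining base genes, of which 0, 1 and 2 had an unadjusted p under 0.05. Here and below, counts at an unadjusted p are given without their share over all genes and are no result about the members. The DESeq2 Wald test and limma-voom also gave 7 members higher and 0 lower, while 11 were higher with library totals in place of TMM and 9 with factors from genes of at least 32 CPM or with no filter. Library totals added Psmb4, Psmc6, Psmd1 and Psmd2, and the factors from genes of at least 32 CPM added Psmd1 and Psmd2. With library totals 1618 of all genes were higher and 1627 lower, against 1277 and 1891 with TMM. All calls are from edgeR's quasi-likelihood test at a Benjamini-Hochberg adjusted p under 0.05 over all genes tested, and levels are CPM scaled with TMM factors, the trimmed mean of M values.

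**Figure D1:**
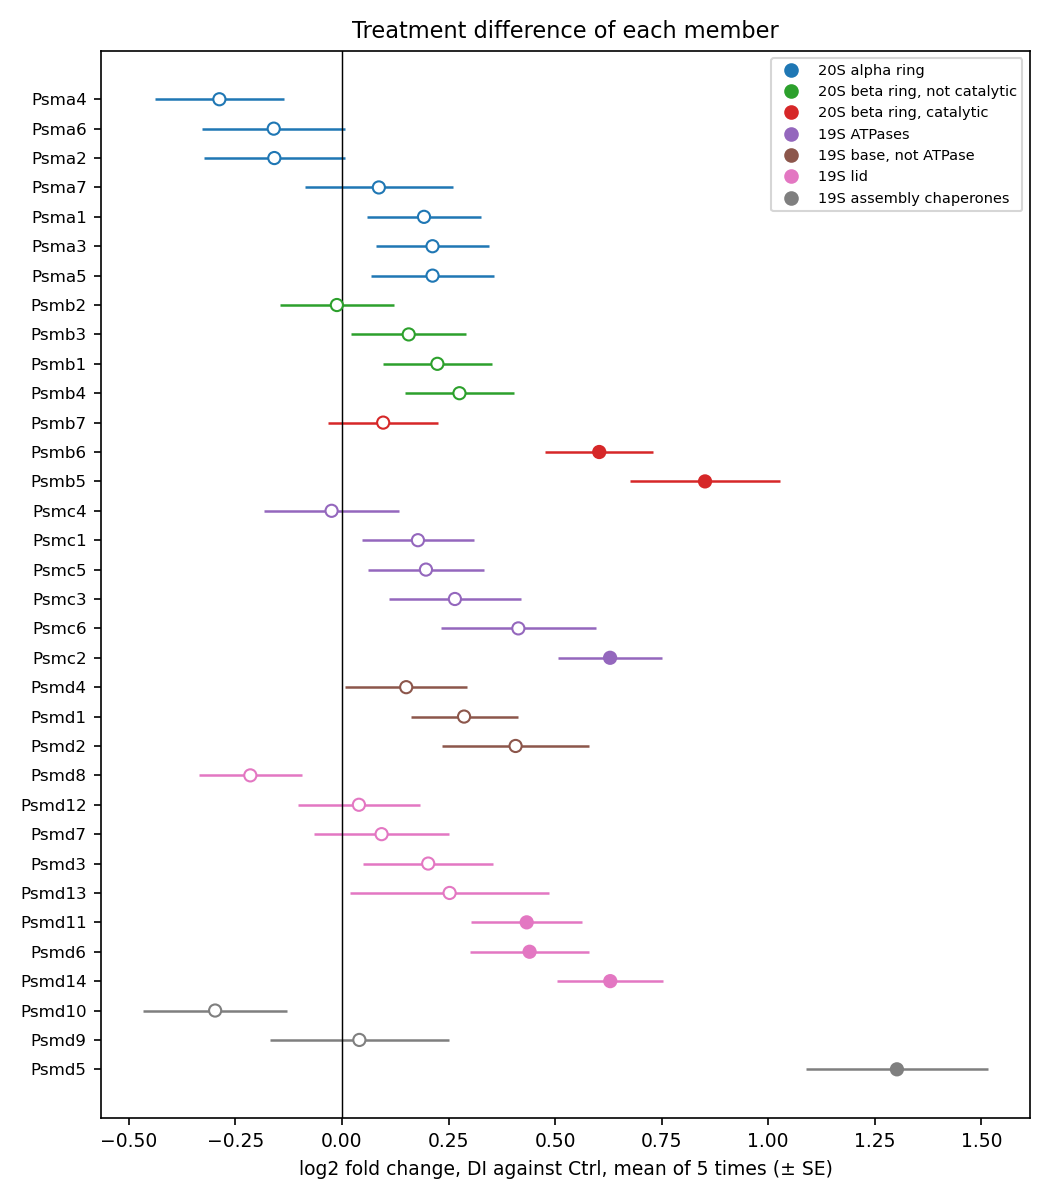
Log2 fold change of DI against Ctrl, averaged over the 5 times, for the 34 members of at least 10 CPM, with bars for the standard error; filled points are called and open points are not, and colours mark the role. The filled points run from 0.43 for Psmd11 to 1.30 for Psmd5.

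Psmb5, the chymotrypsin-like catalytic subunit (beta 5), stood at 13.8 and 15.2 CPM in the Ctrl libraries at 0 h, 14.1 and 12.3 at 1 h, 11.1 and 12.8 at 2 h, 17.8 and 13.1 at 4 h, and 11.4 in both (11.45 and 11.36) at 6 h. In DI it stood at 24.6 and 13.5, 25.3 and 13.5, 33.8 and 40.8, 15.6 and 19.9, and 31.85 and 31.99 CPM at the same times. At this scaling the Ctrl libraries ran from 11.1 to 17.8 CPM, and both DI libraries were above both Ctrl libraries at 2 and 6 h and overlapped them at 0, 1 and 4 h. Separation of 2 libraries from 2 is a weak criterion. Its share over all genes is not given, for Psmb5 or any gene below, so it only describes the values. The averaged log2 fold change was 0.85 ± 0.18 (SE, 2 libraries in each of 10 groups, adjusted p = 5.44e-04). At single times Psmb5 was called at 2 h (1.64 ± 0.39, adjusted p = 0.0117) and 6 h (1.48 ± 0.41, adjusted p = 0.0141). The call at 2 h was lost without either Ctrl 2 h library or DI 2 h replicate 2, and that at 6 h without either Ctrl 6 h library. Psmb5 had 32 to 172 reads a library, and its reads could be shared with 2 pseudogenes of near-identical 3′ end that are not among the counted genes. The exons also hold the microRNA gene Mir686 on the same strand.

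Psmb6, the caspase-like catalytic subunit (beta 1), was at 60.1 and 59.7 CPM in Ctrl at 0 h, 74.5 and 63.4 at 1 h, 56.4 and 81.7 at 2 h, 119 and 123 at 4 h, and 96.3 and 129 at 6 h. In DI it was at 112 and 75.2, 91.8 and 76.6, 135 and 154, 121 and 134, and 245 and 192 CPM. Both DI libraries lay above both Ctrl libraries at 4 of the 5 times, all but 4 h. The averaged log2 fold change was 0.60 ± 0.13 (adjusted p = 6.82e-04), and Psmb6 was called at 2 h (1.06 ± 0.29, adjusted p = 0.0262) and at 6 h (0.95 ± 0.28, adjusted p = 0.0249). The first of these was lost without Ctrl 2 h replicate 1 or DI 2 h replicate 2, and the second without Ctrl 6 h replicate 1 or DI 6 h replicate 1. Both calls were also lost when only the groups compared were fitted.

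Psmb7, the trypsin-like catalytic subunit (beta 2), did not pass. It ran from 38.7 to 92.7 CPM in Ctrl with a median of 62.8, and from 48.0 to 84.6 with a median of 74.5 in DI, an averaged log2 fold change of 0.10 ± 0.13 (adjusted p = 0.623). By time the log2 fold change lay between −0.12 and 0.63. An exon of Psmb7 overlaps Nek6 on the opposite strand, which the strand-specific libraries can separate if the counting used strand, a setting not given in the sources used here.

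The other beta genes and the alpha ring were not called with TMM factors. Of the beta genes, Psmb4 had the highest averaged log2 fold change (0.28 ± 0.13, adjusted p = 0.111) and Psmb2 the lowest (−0.01 ± 0.13, adjusted p = 0.973), with Psmb1 and Psmb3 between them. Psmb4 ran from 71.6 to 134 CPM in Ctrl and from 83.4 to 201 in DI. In the alpha ring, the values spread to both sides of 0, from −0.29 ± 0.15 for Psma4 (adjusted p = 0.158) to 0.21 ± 0.14 for Psma5 (adjusted p = 0.287), and 4 of 7 were above 0. Psma4 was at 304 to 695 CPM in Ctrl and 209 to 851 in DI, and Psma5 at 21.8 to 84.3 and 24.7 to 93.3, so the ranges overlapped widely.

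Among the ATPases, Psmc2 was higher in DI at all 5 times without overlap. It was at 51.6 and 42.0 CPM in Ctrl at 0 h, 60.8 and 48.1 at 1 h, 54.4 and 45.9 at 2 h, 61.97 and 62.05 at 4 h, and 72.3 and 71.1 at 6 h. In DI it was at 83.6 and 77.6, 79.2 and 71.1, 76.0 and 64.2, 91.5 and 77.7, and 126 and 154 CPM. The averaged log2 fold change was 0.63 ± 0.12 (adjusted p = 2.68e-04), and at 6 h alone it was 0.96 ± 0.27 (adjusted p = 0.0181), a call lost without either Ctrl 6 h library or DI 6 h replicate 2. This call was also lost with no filter and when only the groups compared were fitted. The other 5 ATPases were not called with TMM factors and ran from −0.02 ± 0.16 for Psmc4 (adjusted p = 0.941) to 0.41 ± 0.18 for Psmc6 (adjusted p = 0.0900). Replicates of Psmc6 stood far apart: at 4 h in DI it was at 88.1 and 263 CPM, and at 2 h in Ctrl at 207 and 93.7.

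In the rest of the base, none of the 3 genes passed with TMM factors, though Psmd1 and Psmd2 did with other scalings. Psmd2, a scaffold that docks ubiquitin receptors, was at 0.41 ± 0.17 (adjusted p = 0.0792), Psmd1, the other scaffold, at 0.29 ± 0.12 (adjusted p = 0.0899), and the ubiquitin receptor Psmd4 at 0.15 ± 0.14 (adjusted p = 0.466). All 3 values were positive. Reads of Psmd1 could be shared with Gm21972 on the same strand.

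In the lid, Psmd14, the deubiquitinase of the particle, was also above Ctrl at all 5 times. It was at 52.1 and 44.2 CPM in Ctrl at 0 h, 51.0 and 47.0 at 1 h, 57.3 and 50.6 at 2 h, 74.5 and 56.8 at 4 h, and 49.4 and 44.5 at 6 h. In DI it was at 63.8 and 75.5, 76.0 and 63.9, 81.9 and 67.6, 75.1 and 90.7, and 124 and 106 CPM. The averaged log2 fold change was 0.63 ± 0.12 (adjusted p = 3.40e-04), and at 6 h it was 1.29 ± 0.28 (adjusted p = 0.00261), the smallest p of any member at a single time and a call held in all 15 alternatives. Psmd6 ran from 34.5 to 71.2 CPM (median 50.7) in Ctrl and from 44.5 to 99.0 (median 61.4) in DI, with an averaged difference of 0.44 ± 0.14 (adjusted p = 0.0181). Psmd11 ran from 141 to 459 CPM (median 212) and from 187 to 407 (median 315), with 0.43 ± 0.13 (adjusted p = 0.0133). Both were above Ctrl without overlap at 3 of the 5 times. Reads of Psmd11 could be shared with 1 pseudogene of near-identical 3′ end that is not among the counted genes. The call of Psmd6 was lost without DI 4 h replicate 1 (adjusted p = 0.0517), and that of Psmd11 without replicate 2 of DI at 2, 4 and 6 h together, which held the most genes without a read (adjusted p = 0.0975). The other 5 lid genes were not called, and the lowest was Psmd8 (−0.22 ± 0.12, adjusted p = 0.192).

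The assembly chaperones went apart. Psmd5 had the highest averaged value of all members. In Ctrl it was at 33.0 and 21.2 CPM at 0 h, 20.8 and 16.0 at 1 h, 11.6 and 13.1 at 2 h, 9.17 and 14.5 at 4 h, and 16.1 and 13.1 at 6 h. In DI it was at 37.3 and 56.5, 23.1 and 89.1, 37.0 and 24.8, 43.4 and 24.6, and 31.2 and 38.8 CPM, above both Ctrl libraries at each of the 5 times but with DI replicates that differed widely at 1 h. The averaged log2 fold change was 1.30 ± 0.21 (adjusted p = 3.65e-05). At 1 h it was 1.62 ± 0.47 (adjusted p = 0.0435), a call lost without DI 1 h replicate 2 or without either Ctrl 1 h library. This call was also lost with limma-voom, with a replicate block and when only the groups compared were fitted. Psmd9 (0.04 ± 0.21, adjusted p = 0.919) and Psmd10 (−0.30 ± 0.17, adjusted p = 0.193) were not called.

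**Figure D2:**
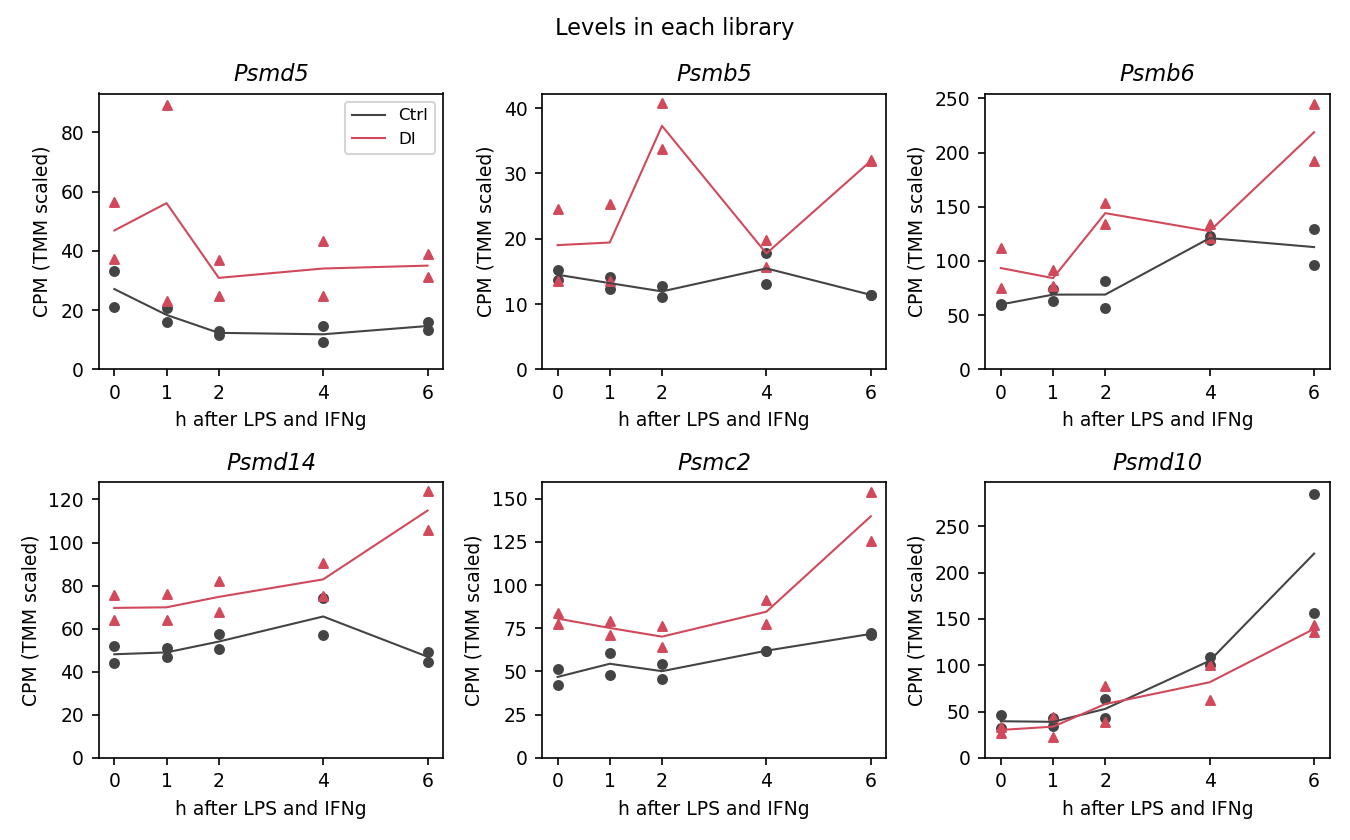
Levels (CPM, TMM scaled) of 6 members against hours after LPS and IFNg, with a point for each library (circles Ctrl, triangles DI) and lines through the means of the 2 libraries. Psmd5, Psmd14 and Psmc2 show both DI libraries above both Ctrl libraries at all 5 times, and Psmd10 shows a rise in both treatments.

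At single times the tests found less. At 0 h, after 12 h of DI and before the stimulus, 0 of 36 members were called, against 1.43% of all genes higher and 2.17% lower; 6 members had an unadjusted p under 0.05, and the DESeq2 Wald test called 1 higher. At 1 h 1 member, Psmd5, was higher (1.86% of all genes higher, 3.03% lower). At 2 h 2 members, Psmb5 and Psmb6, were higher (2.27% higher, 3.97% lower). At 4 h 0 were called (3.43% higher, 6.00% lower) in edgeR, with 4 at an unadjusted p under 0.05 and 2 higher in the DESeq2 Wald test. At 6 h 4 members, Psmd14, Psmb5, Psmc2 and Psmb6, were higher (5.24% higher, 8.95% lower). The count at 2 h was 0 without Ctrl 2 h replicate 1 or DI 2 h replicate 2 and 1 without Ctrl 2 h replicate 2, that at 4 h was 2 without DI 4 h replicate 1, and that at 6 h was 1 without Ctrl 6 h replicate 1 and 2 without replicate 2. At 6 h 6 members were higher with library totals, Psmb4 and Psmd5 being added, and 5 with the factors of genes of at least 32 CPM, Psmd5 being added. With library totals in place of TMM the share of higher genes among all calls went from 36.4 to 56.2% at 4 h and from 36.9 to 53.4% at 6 h. No member was lower in DI in edgeR at any single time, and the DESeq2 Wald test called 1 lower at 1 h. Counts were also simulated for the same groups, with levels that did not change with time. The spread between replicates was set by hand, larger in DI than in Ctrl. There the tests at single times found 1.11 to 7.78% of 2-fold changes and 53.6 to 65.5% of 4-fold changes, and the averaged test 84.4% and 100%. That spread was not fitted to the members, so these shares do not give the power for them.

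The second comparison asks how proteasome genes responded to LPS and IFNg. Its direction depends on how libraries are scaled. The 4 contrasts of a treatment share its 0 h libraries. With TMM factors, 7 members were higher than at 0 h in Ctrl at 4 h and 7 at 6 h, and 0 were lower. With library totals and no factors, 0 were higher and 7 lower at 4 h, and 1 higher and 11 lower at 6 h. Of all 10663 genes tested, 841 were higher and 3817 lower at 4 h with these totals, and 889 and 3688 at 6 h. With factors from genes of at least 32 CPM, 1 was higher and 2 lower at 4 h, and 3 and 2 at 6 h. Against TMM, library totals moved the median of all genes by −0.86 and −0.82 at these times and the factors of abundant genes by −0.34 and −0.31. Of all genes called, the share that was higher went from 89.6, 74.7, 60.6 and 57.5% with TMM to 67.7, 27.5, 18.1 and 19.4% with library totals at 1, 2, 4 and 6 h in Ctrl, and from 91.6, 71.9, 60.8 and 55.8% to 78.3, 31.6, 21.1 and 23.4% in DI. A factor per library shifts all genes alike, so the distance between members and other genes is nearly the same at any scaling by arithmetic. That sameness is no sign of robustness. With TMM the members' median was above that of all genes by 0.48 at 4 h and 0.35 at 6 h in Ctrl, and by 0.45 and 0.64 in DI. With factors from genes of at least 32 CPM the members' own median was −0.0041 and −0.13 in Ctrl, and 0.083 and 0.38 in DI. In Ctrl it thus did not rise at that scaling.

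**Figure D3:**
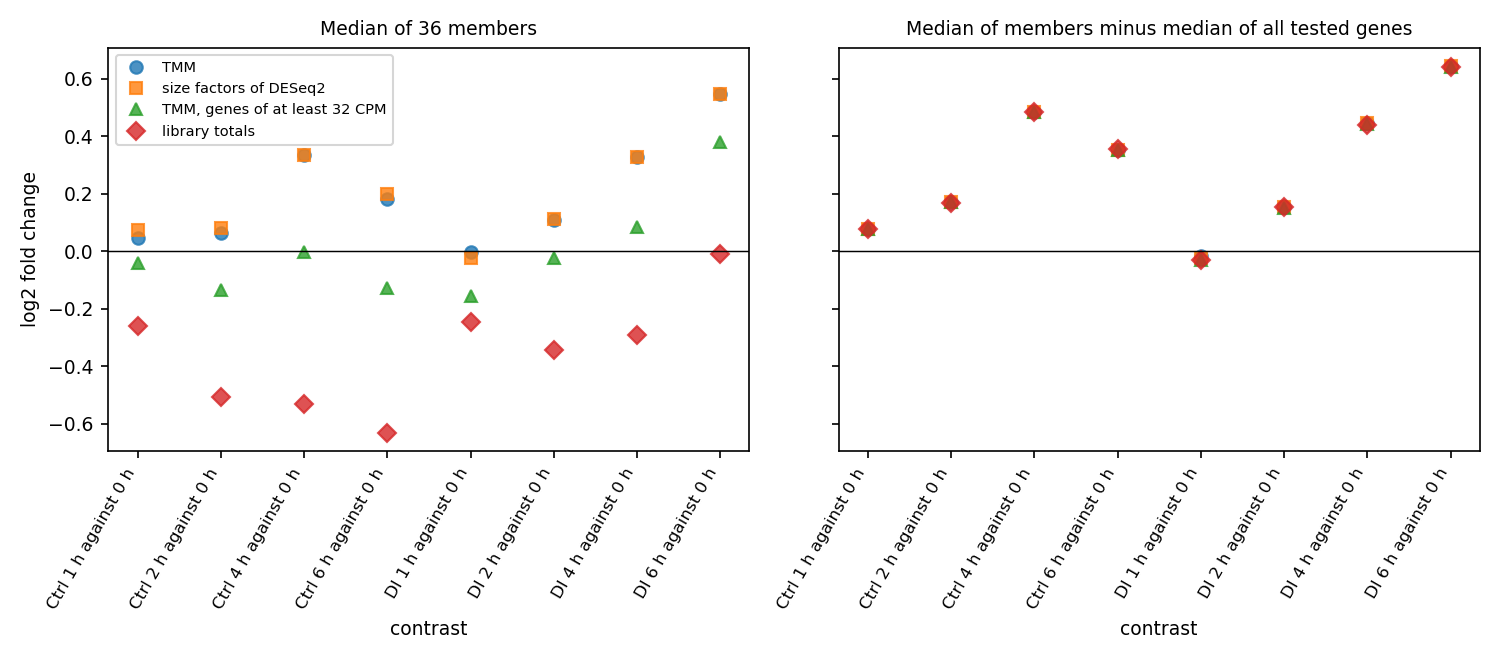
Median log2 fold change against 0 h of the 36 members (left) and that median minus the median of all genes tested (right), at 4 stimulated times in Ctrl and in DI, with a symbol for each of 4 scalings. On the left the Ctrl 6 h value runs from −0.63 with library totals to 0.20 with the size factors of DESeq2. On the right the symbols coincide by arithmetic, since a factor shifts all genes of a library alike.

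At 6 h Psmd10, the chaperone also known as gankyrin, rose in both treatments under every alternative run. In Ctrl it was at 46.3 and 32.8 CPM at 0 h, 43.1 and 34.7 at 1 h, 42.6 and 63.2 at 2 h, 109 and 101 at 4 h, and 156 and 285 at 6 h. In DI it was at 33.2 and 27.1, 22.7 and 44.6, 39.0 and 77.1, 101 and 62.6, and 136 and 143 CPM. The 4 and 6 h libraries of either treatment all lay above those at 0 h. At 6 h the log2 fold change was 2.48 ± 0.39 in Ctrl (adjusted p = 2.58e-05) and 2.21 ± 0.39 in DI (adjusted p = 1.77e-04). With library totals these were 1.67 ± 0.39 (adjusted p = 0.00137) and 1.65 ± 0.39 (adjusted p = 0.00268), and both calls held in every alternative run (14 in Ctrl, 15 in DI). At 4 h Psmd10 was called in Ctrl (1.41 ± 0.38, adjusted p = 0.00735) and DI (1.44 ± 0.39, adjusted p = 0.00918), and both calls at 4 h were lost with library totals and without replicate 2 at 0 h of the same treatment, and that in DI also without DI 4 h replicate 1. The DI call at 4 h was also lost with quality weights in limma-voom.

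In the core particle, Psma5 and Psma3 of the alpha ring followed. Psma5 was at 31.2 and 26.6 CPM in Ctrl at 0 h and at 64.8 and 84.3 at 6 h (1.37 ± 0.32, adjusted p = 0.00236). In DI it went from 31.99 and 32.16 to 93.3 and 81.5 (1.45 ± 0.33, adjusted p = 0.00218). The DI call held in all 15 alternatives and the Ctrl call in 13 of 14, the exception being library totals (adjusted p = 0.180). Psma3 was at 89.25 and 98.4 CPM in Ctrl at 0 h and at 203 and 237 at 6 h (1.23 ± 0.30, adjusted p = 0.00312), lost with library totals alone (adjusted p = 0.259). Its call in DI at 6 h (0.85 ± 0.30, adjusted p = 0.0471) was lost in 10 of 15 alternatives. Pseudogenes with near-identical 3′ ends exist for Psma3 (3 of them) and Psma5 (2).

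The other calls in Ctrl changed with the scaling. At 4 h Psmd11 (1.05 ± 0.29, adjusted p = 0.00945), Psmb6 (1.02 ± 0.29, adjusted p = 0.00973) and Psma3 (1.06 ± 0.30, adjusted p = 0.0101) had the smallest p after Psmd10, and Psma2, Psma5 and Psmb4 were also called. Of the 7 members, 19.4% of 36, none was higher with library totals, and all 7 were with the size factors of DESeq2; of all genes 14.7% were higher and 9.58% lower. Without Ctrl 0 h replicate 2 the count was 0, without Ctrl 0 h replicate 1 it was 3 and without Ctrl 4 h replicate 2 it was 2. In Ctrl at 6 h the catalytic genes Psmb7 (0.96 ± 0.29, adjusted p = 0.0153) and Psmb6 and the core genes Psmb2 and Psma6 joined Psmd10, Psma5 and Psma3 (15.2% of all genes higher, 11.3% lower), and the count was 3 without Ctrl 0 h replicate 2 or without Ctrl 6 h replicate 2. At 1 and 2 h in Ctrl 0 members were called (3.65% of all genes higher and 0.422% lower at 1 h, 9.13% and 3.09% at 2 h), with 1 and 4 at an unadjusted p under 0.05 and 0 and 1 higher in the DESeq2 Wald test.

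With library totals the 11 members lower in Ctrl at 6 h were the beta genes Psmb3 and Psmb5, the ATPases Psmc1 and Psmc5, the base genes Psmd1, Psmd2 and Psmd4, the lid genes Psmd3, Psmd12 and Psmd14 and the chaperone Psmd5, and no alpha ring gene. At this setting 3688 of all 10663 genes tested were lower, so the fall was not particular to the members. Psmb5 went from 19.2 and 20.9 CPM of the library total at 0 h to 8.75 and 9.17 at 6 h (−1.16 ± 0.41 (adjusted p = 0.0269)), while with TMM factors it did not pass (−0.34, adjusted p = 0.582). Psmd1 went from 573 and 563 to 208 and 237 (−1.35 ± 0.28 (adjusted p = 0.000444)).

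In DI 0 members were called at 1 h (3.29% of all genes higher, 0.300% lower), with 3 at an unadjusted p under 0.05 and 1 lower in the DESeq2 Wald test. At 2 h the ATPase gene Psmc3 was lower (−1.32 ± 0.35, adjusted p = 0.0136; 7.89% of all genes higher, 3.09% lower), from 76.5 and 163 CPM at 0 h to 54.9 and 40.8. The replicates at 0 h were far apart, and the call was lost without DI 0 h replicate 2 or without DI 2 h replicate 2. The call of Psmc3 was also lost with quality weights in limma-voom and when only the groups compared were fitted. At 4 h Psmd10 and Psmc6 (1.19 ± 0.41, adjusted p = 0.0427) were higher (11.4% of all genes higher, 7.34% lower), the latter with its DI 4 h libraries at 88.1 and 263 CPM and a call lost in 10 of 15 alternatives, among them the fit without DI 4 h replicate 2. The count was 0 without DI 0 h replicate 2 and 1 without DI 4 h replicate 1. At 6 h 9 members (25.0%) were higher and 0 lower, against 11.2% and 8.91% of all genes. Besides Psmd10 and Psma5 the smallest p belonged to Psmb6 (1.23 ± 0.28, adjusted p = 0.00300) and the ATPase gene Psmc4 (1.15 ± 0.36, adjusted p = 0.0234), and Psma3, Psma4, Psmc2, Psmd6 and Psmd8 were also called. Of the 9, 2 were higher with library totals and 3 with the factors of abundant genes. The count was 2 without DI 0 h replicate 2 and 5 without either DI 6 h library.

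The third comparison tests whether the response itself differed between DI and Ctrl. No member passed at 1, 2, 4 or 6 h in edgeR, nor with limma-voom or the DESeq2 Wald test. Of all genes 0.0375% had a higher and 0.216% a lower response in DI at 1 h, 0.113% and 0.244% at 2 h, 0.188% and 0.572% at 4 h, and 0.572% and 0.975% at 6 h. With library totals the share of higher genes among these calls went from 24.7 to 48.7% at 4 h and from 37.0 to 61.8% at 6 h. At an unadjusted p under 0.05 the members numbered 2, 3, 2 and 0 at the 4 times, which is no result about the members. The treatment difference of Psmb5, Psmb6, Psmc2 and Psmd14 at 6 h and its lack of a call at 0 h are therefore not shown to differ.

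**Figure D4:**
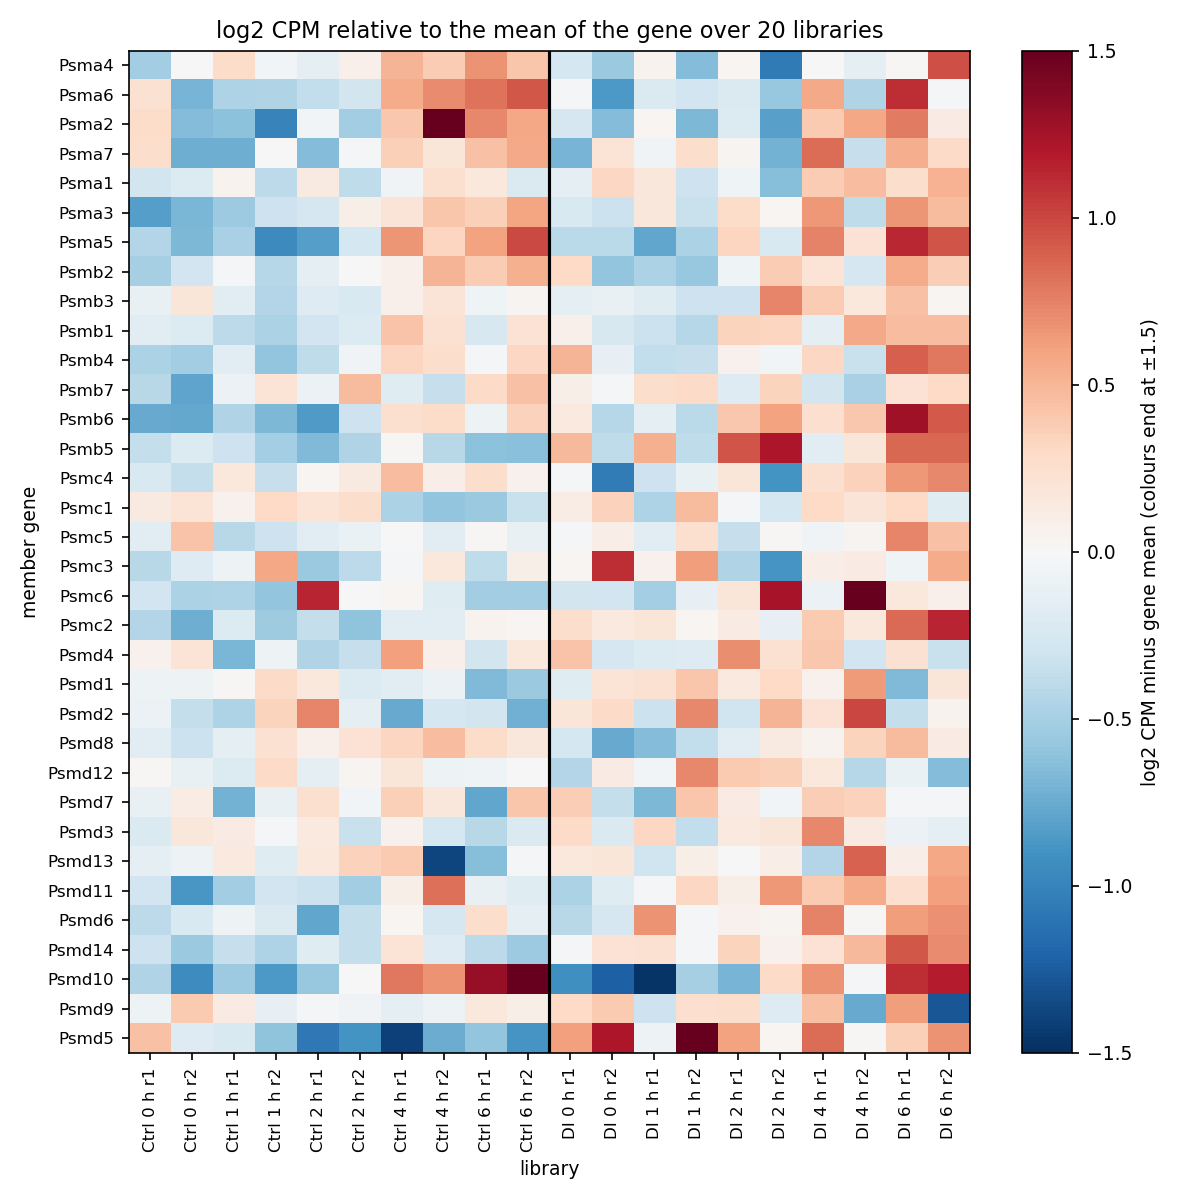
Log2 CPM (TMM scaled) of the 34 members of at least 10 CPM in each of the 20 libraries, less the mean of each gene over all libraries; red is above and blue below the mean, the left block is Ctrl, the right block DI, and r1 and r2 are the 2 libraries of a group. Psmd10 runs from blue at 0 h to red at 6 h in both blocks, Psmd5 is red in most DI and blue in most Ctrl libraries, and Psmc3 and Psmc6 show single libraries that depart from their replicate.

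Genes that work with the proteasome were taken from a list of 31. Over the 5 times 10 were higher in DI and 1 lower, beside 12.0% and 17.7% of all genes tested. The 3 genes tied to transcription of subunits were all higher: Nfe2l1 (0.57 ± 0.14, adjusted p = 0.00294), which encodes NRF1, Nfe2l2 (0.59 ± 0.16, adjusted p = 0.00521), which encodes NRF2, and Ddi2 (0.69 ± 0.17, adjusted p = 0.00218), the protease that activates NRF1. Nfe2l1 ran from 134 to 190 CPM in Ctrl and from 135 to 421 in DI. Among the 10 higher genes Vcp, the unfoldase that extracts ubiquitinated proteins, had the smallest p (0.63 ± 0.11, adjusted p = 1.22e-04), with 461 to 552 CPM in Ctrl and 639 to 947 in DI, ranges that did not overlap. Its cofactors Ufd1 (0.77 ± 0.19, adjusted p = 0.00261) and Nploc4, the ubiquitin-activating enzyme Uba1, the shuttle Rad23b, the 19S ubiquitin receptor Adrm1 and the activator Psme3 (0.52 ± 0.18, adjusted p = 0.0320) were also higher, although the call of Psme3 was lost in 11 of 30 alternatives. The activators Psme1 (−0.17 ± 0.13), Psme2 (0.27 ± 0.13) and Psme4 (−0.35 ± 0.14) were not called, and none of the 5 genes of 20S assembly (Psmg1 to Psmg4 and Pomp) was. Reads of Psme2 could be shared with the near-identical Psme2b, those of Adrm1 with Gm9774, and those of Uba1 with 8 counted genes that hold a similar stretch near the 3′ end. Exons of Ddi2 overlap Rsc1a1 on the same strand, so its reads could be shared too.

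The gene that was lower was Psmb9, the immunoproteasome counterpart of Psmb6. It was at 71.7 and 65.0 CPM in Ctrl at 0 h, 63.3 and 61.8 at 1 h, 88.6 and 95.1 at 2 h, 118 and 112 at 4 h, and 163 in both at 6 h. In DI it was at 42.1 and 38.4, 37.0 and 45.3, 65.4 and 60.9, 90.7 and 49.6, and 89.8 and 72.5 CPM. Both DI libraries were below both Ctrl libraries at all 5 times, and the averaged log2 fold change was −0.73 ± 0.13 (adjusted p = 9.96e-05). Psmb8 (−0.29 ± 0.12, adjusted p = 0.0716) and Psmb10 (−0.18 ± 0.12, adjusted p = 0.302) were not called. An exon of Psmb9 overlaps Tap1 on the opposite strand.

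Transcripts of a constitutive catalytic gene and of its immunoproteasome counterpart were also compared within a library, as the ratio of their raw counts, which no scaling between libraries touches. This is a ratio of mRNA and does not measure which subunits the particle holds. The 3 pairs are those of the textbook, but the ratio was formed after the values of both genes had been seen, so no test is given. The ratio of Psmb6 to Psmb9 ran from 0.591 to 1.18 in Ctrl (median 0.888) and from 1.33 to 2.73 in DI (median 2.51), so every DI library lay above every Ctrl library. The mean log2 difference over the 5 times was 1.35. The ratio of Psmb5 to Psmb8 ran from 0.0329 to 0.0705 in Ctrl and from 0.0630 to 0.186 in DI, a mean log2 difference of 1.10, with ranges that overlapped. That of Psmb7 to Psmb10 ran from 0.286 to 0.990 in Ctrl and from 0.351 to 1.52 in DI, and its mean log2 difference of 0.29 was positive at 3 and negative at 2 of the 5 times.

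**Figure D5:**
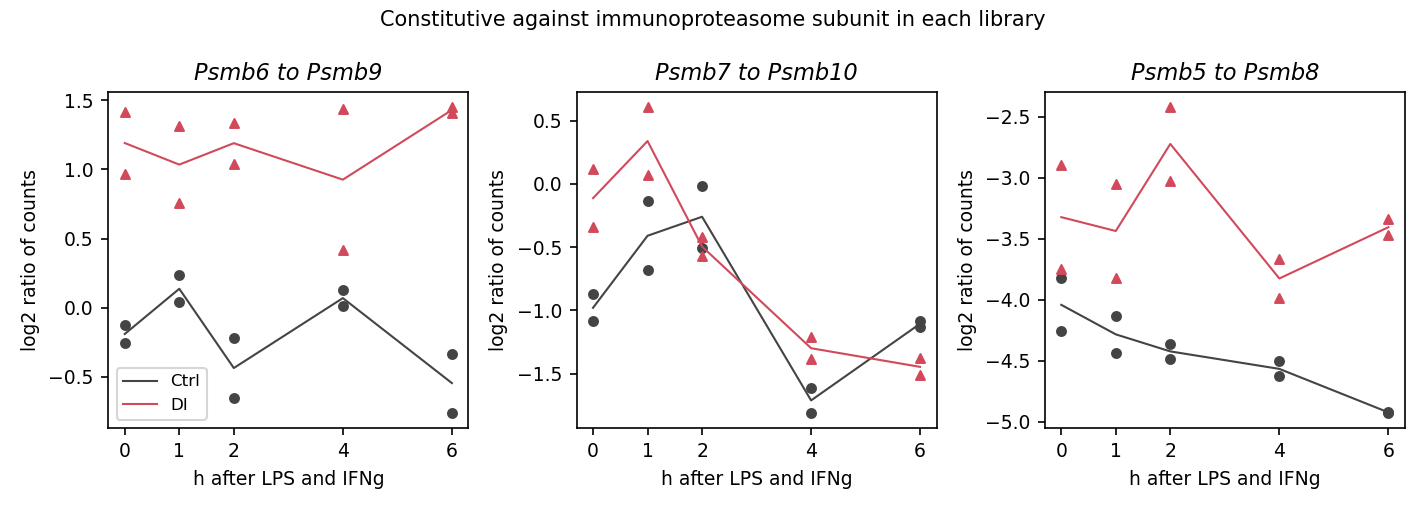
Log2 ratio of the counts of a constitutive catalytic gene to those of its immunoproteasome counterpart against hours after LPS and IFNg, with a point for each library (circles Ctrl, triangles DI) and lines through the means. In the left panel all DI points lie above all Ctrl points, in the middle panel the lines cross, and in the right panel the DI mean is above the Ctrl mean at each time.

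During the stimulus the immunoproteasome and activator genes were called with TMM factors as follows. In Ctrl at 6 h Psme2 (2.15 ± 0.30, adjusted p = 4.99e-06), Psmb9 (1.25 ± 0.29, adjusted p = 0.00175) and Psmb10 (1.10 ± 0.28, adjusted p = 0.00393) were higher than at 0 h. In DI at 6 h Psme2 (1.63 ± 0.30, adjusted p = 2.37e-04), Psmb10 (1.53 ± 0.28, adjusted p = 2.58e-04), Psmb9 (1.01 ± 0.29, adjusted p = 0.0142) and Psmb8 (0.89 ± 0.27, adjusted p = 0.0180) were. With library totals the calls of Psmb9 in both treatments, of Psmb10 in Ctrl and of Psmb8 in DI were lost. Without Ctrl 0 h replicate 2 that of Psmb10 in Ctrl was lost, and without DI 0 h replicate 2 those of Psmb9 and Psmb8 in DI; of 15 alternatives, 5 lost the call of Psmb9 in DI and 8 that of Psmb8. Ddi2 went the other way, with −3.15 ± 0.40 in Ctrl (adjusted p = 1.19e-06) and −2.74 ± 0.39 in DI (adjusted p = 8.06e-06) at 4 h, which held in every alternative run (14 in Ctrl, 15 in DI). Its reads could be shared with Rsc1a1 on the same strand.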

How the data were processed

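Per the labels' protocols, poly(A) RNA was read at its 3′ ends in strand-specific libraries that were pooled by Actb qPCR and amplified by 12 cycles of PCR, with no molecular identifiers named. Alignment and counting tools, per the submitters' processing notes, included STAR and HTSeq, beside DESeq2 and the mm10 genome; no version or option is given there. The authors deposited raw counts per gene with no normalization; everything else was computed here. Pooling by Actb and reading of 3′ ends mean that levels compare a gene between libraries and not genes with each other.

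In R 4.3.3, edgeR 4.0.16 fitted a quasi-likelihood model (filterByExpr by group, TMM, robust glmQLFit) to all 20 libraries with 1 coefficient per group. It left 10663 genes, and all 36 members passed the filter. Each of 18 contrasts was adjusted by Benjamini-Hochberg over all genes tested and called at an adjusted p under 0.05; SE was computed from the F statistic. The alternatives were other scalings, filters and tools (limma 3.58.1, DESeq2 1.42.0), a fit of the compared groups, a replicate block and leaving out libraries. These steps were first tested on simulated data. Named genes were Psmb5, Psmb6 and Psmb7, the called members of smallest p per contrast, and the extremes of each role. The members and lists were chosen with earlier results of these data known. Symbols and positions came from GENCODE M21 (GRCm38). The 2 libraries of a group differed beyond sampling noise in all 10 groups.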

Additional observations from a re-analysis of the deposited data

How the results depend on the processing

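Of the averaged treatment calls, Psmd5, Psmb5, Psmd14, Psmc2 and Psmb6 held in all 30 alternatives; 11 members were higher with library totals and 7 to 9 with 1 library left out, and 0 to 1 were lower. Whether the replicate numbers pair the libraries cannot be told. Of 45 correlations of their deviations 4 were over 0.1, which cannot exclude pairing or a shared batch. In DI the genes at 1 to 3 reads numbered 585 to 674 in replicate 1 and 333 to 497 in replicate 2. The replicate block gave 7 averaged calls, 0 in place of 1 at 1 h, and 1 in place of 2 in DI at 4 h against 0 h. For DI against Ctrl at 4 h, where none was called, the members higher were 1 with the size factors of DESeq2, with the 5 CPM filter, with only the groups compared and without replicate 2 of DI at 2, 4 and 6 h, 2 with the factors of genes of at least 32 CPM and in the DESeq2 Wald test, and 3 with library totals and with no filter. At 0 h the Wald test called 1 higher, and at 1 h 1 lower. Of all genes it called 244 higher and 363 lower at 0 h, and 272 and 531 at 1 h. Of all genes at 4 h, 366 were higher and 640 lower in the main fit. These were 563 and 439 with library totals and 512 and 893 in the Wald test. At 1 h limma-voom and the groups compared alone gave 0. At 2 h the groups compared alone gave 1 and the fit without the 3 DI libraries 0, and at 6 h the groups compared alone gave 2. With 1 library left out, the members higher numbered 0 to 1, 0 to 1, 0 to 2, 0 to 2 and 1 to 3 at 0, 1, 2, 4 and 6 h.

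Against 0 h, library totals gave 3 lower in Ctrl at 2 h, 0 higher and 7 lower at 4 h, and 1 and 11 at 6 h; in DI 2 were lower at 2 h, 0 were higher and 3 lower at 4 h, and 2 and 2 at 6 h. Of all genes, library totals gave 622 higher and 1640 lower in Ctrl at 2 h. In DI they gave 561 and 1217 at 2 h, 730 and 2730 at 4 h, and 722 and 2369 at 6 h. The factors of abundant genes gave 1 higher and 2 lower in Ctrl at 4 h, 3 and 2 at 6 h, and in DI 1 higher at 4 h and 3 at 6 h. Of all genes these factors gave 1198 higher and 1784 lower in Ctrl at 4 h, and 1260 and 1848 at 6 h. In DI they gave 985 and 1227, and 1016 and 1248. Quality weights in limma-voom gave 1 higher in Ctrl at 1 h, 3 higher and 2 lower at 2 h, 12 and 3 at 4 h, and 12 and 2 at 6 h, and in DI 0 lower at 2 h, 0 higher at 4 h and 4 at 6 h. The groups compared alone gave 3 higher and 2 lower in Ctrl at 2 h, 13 and 2 at 4 h and 11 and 1 at 6 h, and in DI 0 lower at 2 h, 1 higher at 4 h and 3 at 6 h. Over all genes in Ctrl at 4 h, the main fit gave 1572 higher and 1022 lower. Quality weights gave 2396 and 2290, and the groups compared alone 2426 and 2399. At 6 h in Ctrl these were 1626 and 1200, 2364 and 2210, and 2358 and 2290. At 2 h in Ctrl they were 973 and 330, 1679 and 1488, and 1585 and 1157. At 1 h in Ctrl the main fit gave 389 and 45, and quality weights 792 and 462. In DI at 2 h the main fit gave 841 and 329, and quality weights 523 and 86. In DI at 1 h the main fit gave 351 and 32, and the Wald test 446 and 110. The larger member counts in Ctrl thus came with larger counts over all genes. Elsewhere in this section, a member count without a count over all genes is no result about the members. At 2 h, 1 was higher in Ctrl with limma-voom, the DESeq2 Wald test and no filter, and 1 in DI with limma-voom and no filter; without a filter 1 was lower in Ctrl at 4 h. The Wald test gave 1 lower in DI at 1 h and 5 higher at 4 h, and without the 3 DI libraries 5 were higher at 4 h and 0 lower at 2 h. With 1 library left out, the members higher in Ctrl numbered 0 to 1, 0 to 5 and 3 to 6 at 2, 4 and 6 h, and in DI 0 to 3, 0 to 3 and 2 to 7, with 0 to 1 lower at 2 h and at 6 h. A group left with 1 library is assumed to vary like the others. With library totals the log2 fold change turned to −0.0723 for Psmb4 and −0.0299 for Gclm (Ctrl 4 h) and to −0.0279 for Sem1 (Ctrl 6 h), since the scaling shifts all genes. For the other changes the cause was not tested. Response differences stayed at 0 in every alternative.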
